A study of Homo sapiens with 6 samples.

Results

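The genes of the translation initiation factors were followed in T24 cells after siRNA against TRIM28. The 48 genes were taken by name from the 78932 genes of the count table: all symbols that begin with EIF and a digit from 1 to 6, without the eIF2alpha kinases, EIF1AY, names that end in P and digits, which are mostly pseudogenes, and names with a hyphen. These exclusions removed 95 of 143 rows. The clause on P and digits also removed EIF4EBP1, EIF4EBP2 and EIF4EBP3, which are described with the other genes of translation. Of the 48 genes, 47 had 10 counts or more in 3 or more of the 6 libraries and were tested. EIF4E1B, a germ cell relative of EIF4E, did not pass this filter, with 0, 0 and 1 counts in siNC and 1, 0 and 0 in siTRIM28.

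T24 is an established human bladder (urothelial) carcinoma line, grown with fetal bovine serum and antibiotics. RNA-seq was made from 3 cultures transfected with a non-targeting siRNA (siNC) and 3 transfected with siRNA against TRIM28 (siTRIM28), all with KeygenMAX3000 and all in batch 1 of the labels. The comparison addresses which transcripts change when TRIM28, a scaffold protein that serves as transcriptional corepressor and SUMO and ubiquitin ligase, is depleted. Which TRIM28 siRNA was used and the time from transfection to harvest are not given in the sources used here, and all cultures come from this 1 line.

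Initiation of translation places a ribosome on the start codon of an mRNA. The eIF4F complex, made of the cap-binding protein eIF4E, the scaffold eIF4G and the helicase eIF4A, binds the cap of the mRNA, while eIF2 brings the initiator methionyl-tRNA to the small ribosomal subunit and eIF3 holds these parts together. Cells control the process mainly at eIF4E, which the 4E-BPs sequester until mTORC1 phosphorylates them, and at eIF2, whose phosphorylation on the alpha subunit blocks its recycling by eIF2B and starts the integrated stress response.

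Several initiation factor mRNAs belong to the class of TOP mRNAs, which start with a C followed by a run of C and T and whose translation follows mTORC1 through the binding protein LARP1. Promoter sequences from RefSeq (GRCh38.p14, 250 bases before and 50 after each annotated start, with several starts for some genes) were matched by symbol for 41 of the 48 genes. In 10 of the 41 (24.4%), an annotated transcript began with C and continued with at least 4 more bases that were all C or T, against 5.14% of the 27305 genes of the table. The windows from 10 bases before the start to 20 bases into the transcript are shown for these genes, 5′ to 3′, because most of them were lower in siTRIM28. Capitals mark the run from the annotated first base.
EIF2S3 (chrX:24054946-24054975, plus strand): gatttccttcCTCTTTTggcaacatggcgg
EIF2S3B (chr12:10505880-10505909, plus strand): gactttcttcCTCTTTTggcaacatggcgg
EIF2A (chr3:150546777-150546806, plus strand): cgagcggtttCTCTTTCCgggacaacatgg
EIF2D (chr1:206612446-206612475, minus strand): ccagccgggcCCTTTTCgcggccgggcccc
EIF3D (chr22:36529147-36529176, minus strand): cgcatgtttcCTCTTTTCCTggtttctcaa
EIF3F (chr11:7987327-7987356, plus strand): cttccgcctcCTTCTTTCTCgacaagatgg
EIF3K (chr19:38619178-38619207, plus strand): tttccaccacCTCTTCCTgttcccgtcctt
EIF3M (chr11:32583821-32583850, plus strand): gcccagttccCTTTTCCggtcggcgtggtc
EIF4A2 (chr3:186783567-186783596, plus strand): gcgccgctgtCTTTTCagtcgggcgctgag
EIF4B (chr12:53006446-53006475, plus strand): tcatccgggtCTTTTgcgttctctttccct

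EIF2S3B, an intronless copy of EIF2S3, shares the run of its parent gene. Of the members called, those with the largest falls and rises in the promoter table had no such run, and their windows are shown in the same frame for comparison.
EIF5 (chr14:103334227-103334256, plus strand): ggcgttgttcagtcagagcgagaacattcc
EIF2B1 (chr12:123633667-123633696, minus strand): gtacggaagtgcgccggaagtggggtgcgg
EIF1 (chr17:41688875-41688904, plus strand): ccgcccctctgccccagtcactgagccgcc
EIF4ENIF1 (chr22:31489823-31489852, minus strand): gccgggctgcagttacggcggctgaagaga

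A match describes only these letters at an annotated start, which was not mapped in T24 cells. Bases 21 to 50 of the transcript were found in a GENCODE v29 transcript of the same gene for 34 of the 41. EIF2A, EIF4B and EIF4E, whose sequences are shown, were among the others. The E-box CACGTG, its own reverse complement and the site bound by MYC and related factors, was found in the 300-base windows of 10 of the 41 genes (24.4%) and in 8.77% of all genes of the table. EIF5A2 also had 2 E-boxes in its window, which are not shown. EIF4E and EIF4G1 each held a pair of E-boxes upstream of the start, in capitals below with the bases between them.
EIF4E (chr4:98929190-98929368, minus strand): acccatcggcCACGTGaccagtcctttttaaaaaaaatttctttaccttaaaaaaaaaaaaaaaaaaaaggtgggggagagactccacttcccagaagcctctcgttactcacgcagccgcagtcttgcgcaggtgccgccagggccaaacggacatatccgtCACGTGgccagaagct
EIF4G1 (chr3:184314452-184314554, plus strand): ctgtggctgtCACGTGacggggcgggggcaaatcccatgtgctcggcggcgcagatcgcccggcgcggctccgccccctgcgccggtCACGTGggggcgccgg

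Total counts lay between 11712623 and 14018052 per library. siTRIM28 replicate 1 and siNC replicate 3 stood apart from their groups. The chi-square per degree of freedom over 18474 genes was 1.08 between siNC replicates 1 and 2 and 4.43 to 4.49 against replicate 3. In siTRIM28 it was 1.24 between replicates 2 and 3 and 6.28 to 6.95 against replicate 1. A value near 1 is what counting noise alone would give. The labels call the samples biological replicates and do not say how the cultures were separated, so p-values measure only the spread between these samples. TRIM28 (chr19:58544064-58550649) measured 102, 100 and 108 CPM (read counts relative to the library total, scaled by TMM) in siNC and 9.26, 8.08 and 9.18 in siTRIM28, with a log2 fold change of -3.54 ± 0.07 (standard error, SE) and an adjusted p of 1.03e-10. The epithelial keratins KRT8 (103 to 104 CPM in siNC) and KRT18 (81.4 to 89.0) and the mesenchymal genes VIM (1089 to 1112) and CDH2 (56.6 to 58.9) were present, while 7 of the 11 urothelial and epithelial markers, KRT5, KRT19, GATA3, UPK2, UPK3A, EPCAM and CDH1, did not pass the filter. Summed levels of the urothelial and epithelial list were 190 to 197 CPM in siNC and 208 to 215 in siTRIM28, and those of the mesenchymal list 1151 to 1176 and 1395 to 1492. Of the haematopoietic markers, CD68 measured 344 to 348 CPM in siNC and 337 to 360 in siTRIM28, CD3E was at 0 in all libraries, and PTPRC was at most 0.313 CPM. Sums of endothelial markers were 0.432 to 0.503 CPM in siNC and 0.712 to 1.01 in siTRIM28, with CDH5 at 0. Those of fibroblast markers were 0.782 to 1.44 and 2.63 to 3.96 CPM, nearly all COL1A1, which was higher (log2 fold change 1.78, adjusted p = 2.22e-04). The part of these shifts in the results below was not tested.

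After TRIM28 siRNA, 19 of the 47 initiation factor genes tested were lower and 5 were higher, in the quasi-likelihood test of edgeR (p adjusted by Benjamini-Hochberg over 18474 genes, threshold 0.05). The lower genes covered subunits of eIF3, eIF2 and eIF2B, the GTPase activator EIF5 and the helicase factors EIF4A1, EIF4A2 and EIF4B. The higher genes were EIF1, EIF2S1, EIF2B5, EIF3J and EIF4ENIF1. The lower genes made up 40.4% of the members tested, where 20.5% of all genes tested were lower, and the higher genes 10.6%, where 21.3% of all genes were higher (41.8% in either direction). Initiation factor genes are abundant, with a median mean level of 136 CPM against 10.4 CPM over all genes tested, and abundant genes were called more often. Among genes with a mean of at least 50 CPM, a limit set after the data were seen, 16 of 35 members (45.7%) were lower where 32% of 3456 genes were, and 4 (11.4%) were higher where 27.6% were.

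The shifts were small. The median log2 fold change was -0.10 over the 47 genes and 0.02 over all genes tested, and the range ran from -0.77 for EIF3L to 0.56 for EIF4ENIF1. Only EIF3L, EIF5 and EIF2B1 fell by at least 0.58 on the log2 scale with an adjusted p under 0.05, and no member rose by as much, where 7.51% of all genes were lower and 9.5% higher by this rule. All siTRIM28 libraries lay below all siNC libraries for 22 members (25.7% of all genes did so) and above them for 9 (26.3% of all genes, 52% in either direction). Reads on the 48 genes made up 1.36%, 1.35% and 1.36% of the total in siNC and 1.22%, 1.24% and 1.23% in siTRIM28. These are bulk cultures, so that fewer cells of a kind and less RNA per cell cannot be told apart. The count was 5 higher and 19 lower without siTRIM28 replicate 1, and 5 higher and 18 lower without siNC replicate 3. Each fit left only a close pair in that group, siTRIM28 replicates 2 and 3 or siNC replicates 1 and 2. The spread in that group was then little more than counting noise, so these counts are no independent check. With the close pairs each summed into 1 library, 4 members were higher and 16 lower, and 5879 of 18867 genes tested were called.

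**Figure D1:**
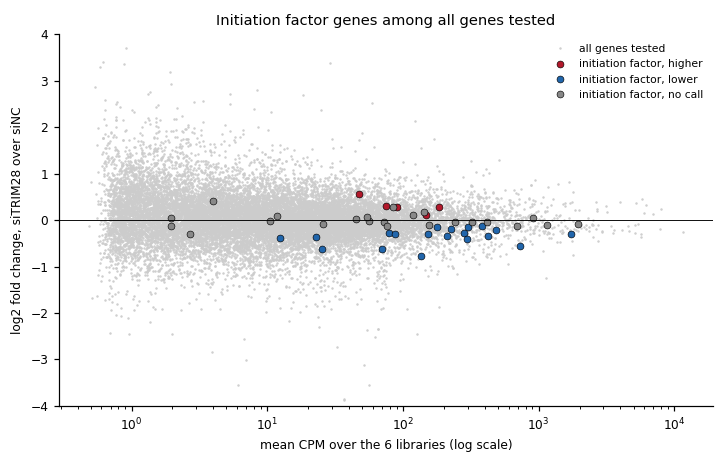
Log2 fold change (siTRIM28 over siNC, vertical axis) against mean CPM over the 6 libraries (horizontal, log scale) for all genes tested (grey points) and the 47 initiation factor genes (large points, red for higher, blue for lower, grey for no call). The members sit mostly to the right of the cloud and between -0.77 and 0.56, and 5 genes that are no members lie outside the plotted range of -4 to 4.

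The eIF3 complex coats the small ribosomal subunit and recruits eIF4F to it. Of its 14 genes 9 were lower, 1 higher and 4 without a call, where 20.5% of all genes were lower and 21.3% higher. All 14 had a mean of at least 50 CPM, and of all genes at that level 32% were lower and 27.6% higher. EIF3C and EIF3CL are counted separately here. The core of eIF3 is an octamer of the subunits a, c, e, f, h, k, l and m. EIF3L (chr22:37848868-37888631), at the edge of this octamer, measured 169, 172 and 174 CPM in siNC and 96.7, 102 and 103 in siTRIM28. The 3 siTRIM28 libraries lay well below the siNC libraries, and the log2 fold change of -0.77 ± 0.04 (SE, adjusted p = 1.30e-07) was the largest fall among the members. EIF3K, its neighbour in the octamer, had no call at 0.11 ± 0.05 (adjusted p = 0.089). The log2 ratio of EIF3L to EIF3K thus went from 0.59 ± 0.04 in siNC to -0.29 ± 0.10 in siTRIM28 (SD, n = 3), a pair chosen after the values were seen and therefore not tested. EIF3L shares its locus with the opposite-strand gene ANKRD54 (log2 fold change -0.69) and with the same-strand ENSG00000279738 (-0.70). The sources used here do not say if reads were counted by strand. Of the 47 members tested, 26 overlap another tested gene, 22 of them one on the opposite strand, and only some of these overlaps are named.

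EIF3H, a subunit of the octamer with an MPN fold, measured 339, 339 and 335 CPM in siNC and 272, 239 and 251 in siTRIM28 (log2 fold change -0.41 ± 0.05, adjusted p = 3.66e-05). EIF3E, one of the subunits with a PCI domain and known as INT6, measured 308, 314 and 312 CPM against 257, 257 and 252 (-0.29 ± 0.04, adjusted p = 7.40e-05). EIF3F, the second MPN subunit, measured 87.1, 83.7 and 86.9 CPM against 65.9, 74.1 and 73.8 (-0.27 ± 0.06, adjusted p = 0.00261). The groups did not overlap for any of these. EIF3C, a large subunit that binds EIF1 and EIF5, measured 240, 232 and 236 CPM against 182, 192 and 189 (-0.33 ± 0.04, adjusted p = 4.82e-05). Its near-identical copy EIF3CL measured 467, 464 and 476 CPM against 365, 379 and 370 (-0.34 ± 0.04, adjusted p = 1.91e-05). Reads of EIF3C and EIF3CL can hardly be told apart, and both rows are best read as a common value. EIF3A, the largest subunit and the second scaffold of the octamer, had no call at -0.08 (adjusted p = 0.117), and EIF3M had none at -0.13 (adjusted p = 0.0559).

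Outside the octamer lie EIF3B, EIF3G and EIF3I, the module next to the mRNA entry channel, as well as EIF3D, which can bind caps, and the loosely attached EIF3J. EIF3I, a beta-propeller subunit, measured 96.6, 94.5 and 96.5 CPM in siNC and 76.8, 79.1 and 79.1 in siTRIM28 (-0.29 ± 0.05, adjusted p = 3.34e-04). EIF3G (-0.16, adjusted p = 0.00706) and EIF3D (-0.13, adjusted p = 0.0106) were also lower. The call of EIF3D was lost in DESeq2 (0.052) and with the close pairs of libraries summed (0.0732), and that of EIF3G with the close pairs summed (0.0716). EIF3B was not called (-0.10, adjusted p = 0.079). EIF3J, which helps eIF3 on and off the ribosome, was the higher gene of the complex with 165, 169 and 169 CPM against 225, 198 and 184 (0.27 ± 0.06, adjusted p = 0.00453). Its highest value was in siTRIM28 replicate 1, and without this library the log2 fold change was 0.19 (adjusted p = 3.32e-04). For EIF3K, EIF3J, EIF3B and EIF3M, too, the groups did not overlap.

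**Figure D2:**
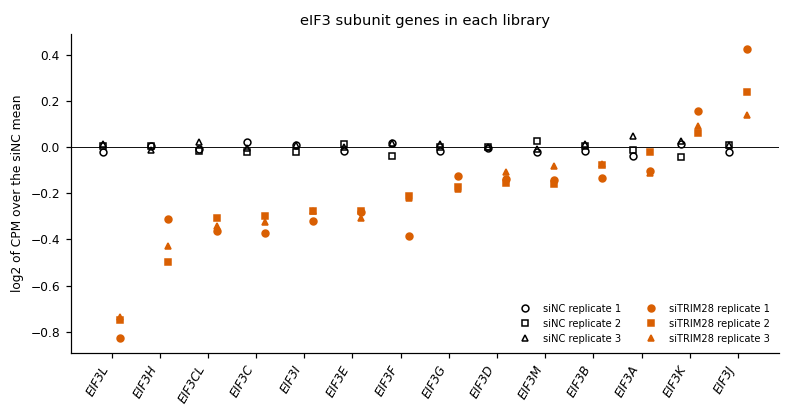
Each of the 14 eIF3 subunit genes in every library, as log2 of its CPM over the siNC mean (vertical axis, 0 is the siNC mean), ordered from the lowest to the highest log2 fold change. Open black symbols are siNC and filled orange symbols siTRIM28, with circles, squares and triangles for replicates 1, 2 and 3, and the orange symbols run from EIF3L at the left, well below 0, to EIF3J at the right, above 0.

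The subunits of eIF2, the trimer that carries the initiator tRNA, did not move together. EIF2S2 (chr20:34088309-34112243), the beta subunit that contacts EIF5 and eIF2B, measured 863, 860 and 860 CPM in siNC and 649, 562 and 556 in siTRIM28. The groups were far apart, and the log2 fold change was -0.55 ± 0.05 (adjusted p = 9.68e-06). EIF2S3, the GTP-binding gamma subunit, was lower by less (-0.19 ± 0.04, adjusted p = 0.00201). EIF2S1, the alpha subunit that the stress kinases phosphorylate, measured 144, 139 and 141 CPM against 153, 155 and 150 (0.11 ± 0.04, adjusted p = 0.0481). The groups did not overlap for EIF2S1, but the call was lost with 5 of the 6 libraries left out in turn (adjusted p up to 0.187). The call was also lost with RLE factors (0.0626), in DESeq2 (0.233), without the filter (0.249) and with the close pairs summed (0.275). The log2 ratio of EIF2S2 to EIF2S1 was 2.61 ± 0.02 in siNC and 1.95 ± 0.12 in siTRIM28 (SD, n = 3), again a pair chosen after the values were seen. EIF2S2 overlaps RALY on the opposite strand (-0.39).

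EIF2A, a separate tRNA carrier unrelated to the eIF2 trimer, measured 163, 171 and 173 CPM against 140, 137 and 136 (-0.30 ± 0.04, adjusted p = 1.65e-04). EIF2D, which can load tRNA without GTP and takes part in reinitiation and recycling, measured 13.4, 13.5 and 15.2 CPM against 9.90, 10.9 and 11.3 (-0.39 ± 0.09, adjusted p = 0.00448). Both were below siNC in each siTRIM28 library. EIF2S3B was near the filter at 1.44 to 2.52 CPM and had no call.

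The exchange factor eIF2B, which returns eIF2 to its GTP form and is the target of phosphorylated eIF2, has a regulatory part of EIF2B1, EIF2B2 and EIF2B4 and a catalytic part of EIF2B3 and EIF2B5. EIF2B1 (chr12:123620406-123633766), the alpha subunit that senses phosphorylated eIF2, measured 32.02, 30.4 and 30.3 CPM in siNC and 21.4, 18.9 and 20.04 in siTRIM28 (-0.62 ± 0.07, adjusted p = 2.59e-05). EIF2B3, the gamma subunit, measured 25.4, 25.3 and 26.9 CPM against 18.4, 22.6 and 19.3 (-0.37 ± 0.08, adjusted p = 0.00376). EIF2B5, the catalytic epsilon subunit, went the other way, from 80.0, 84.1 and 83.0 CPM to 108, 95.1 and 96.0 (0.28 ± 0.06, adjusted p = 0.00238). The groups of all 3 genes did not overlap, while those of EIF2B2 (0.03) and EIF2B4 (-0.03) did. The log2 ratio of EIF2B1 to EIF2B5 went from -1.41 ± 0.08 to -2.31 ± 0.04 (SD, n = 3, chosen after the values were seen). On the opposite strand EIF2B1 overlaps DDX55 (840 counts on average, log2 fold change -0.06) and GTF2H3 (81.3 counts, -1.41).

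Among the factors that scan for the start codon, EIF1 and EIF5 moved in opposite directions. EIF1 keeps the scanning ribosome open and favours stringent start codons, and EIF5 stimulates GTP hydrolysis by eIF2 once a start codon is found. EIF1 (chr17:41688885-41691212) measured 67.8, 66.2 and 66.8 CPM in siNC and 86.6, 81.7 and 81.6 in siTRIM28 (0.31 ± 0.05, adjusted p = 3.68e-04). EIF5 (chr14:103333544-103342386) measured 84.8, 86.6 and 83.2 CPM against 52.2, 56.2 and 57.1 (-0.62 ± 0.05, adjusted p = 3.49e-06). Every siTRIM28 library was above siNC for EIF1 and below it for EIF5. EIF1B, the close relative of EIF1, and EIF1AX, the X-linked gene of eIF1A, overlapped siNC with log2 fold changes of -0.03 each, and EIF1AD had no call at 0.10.

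**Figure D3:**
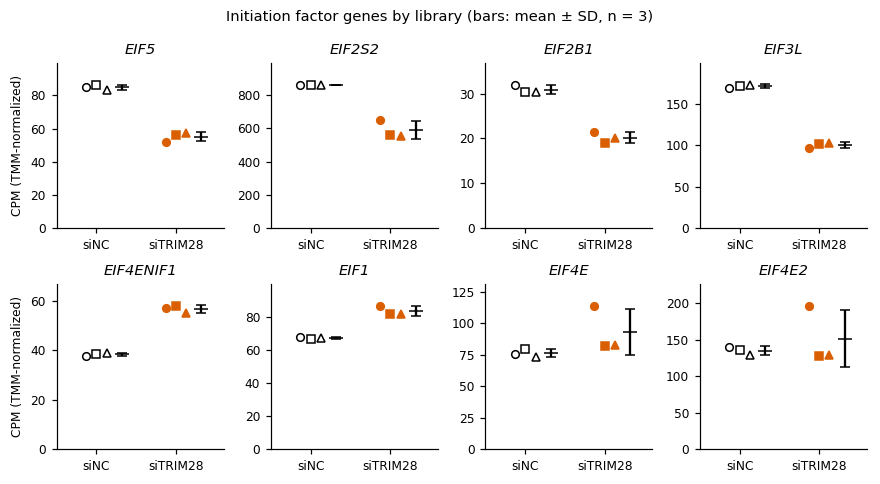
CPM (TMM-normalized, vertical axes from 0) of 8 initiation factor genes in each library. Open black symbols are siNC and filled orange symbols siTRIM28, with circles, squares and triangles for replicates 1, 2 and 3, and the bars at the right of each group give the mean ± SD (n = 3). EIF5, EIF2S2, EIF2B1 and EIF3L lie lower and EIF4ENIF1 and EIF1 higher in all 3 siTRIM28 libraries, while EIF4E and EIF4E2 are raised mainly in replicate 1.

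Of the 4 genes of the cap-binding group tested, 1 was higher, near the share of 21.3% of all genes tested, and 3 had no call. EIF4ENIF1 (4E-T), which binds eIF4E, shuttles it to the nucleus and takes it to P-bodies, showed the largest rise of the members, from 37.9, 38.4 and 38.9 CPM to 57.0, 58.1 and 55.1 (0.56 ± 0.06, adjusted p = 1.13e-05), with no overlap of the groups. It shares its locus with opposite-strand genes, DRG1 (log2 fold change 0.00), SFI1 (0.18), ENSG00000240591 (0.83) and ENSG00000287817 (0.43). EIF4E (chr4:98879276-98929125), the cap-binding protein, measured 75.8, 79.6 and 73.5 CPM in siNC and 114, 81.8 and 82.6 in siTRIM28. The siTRIM28 libraries were all above siNC, but replicate 1 was far above the other two, and the log2 fold change of 0.28 ± 0.11 missed the threshold (adjusted p = 0.0515). It passed with RLE factors (0.0481), with total counts (0.0389) and in DESeq2 (0.0339). Without replicate 1 the log2 fold change was 0.11 (adjusted p = 0.0906). EIF4E2 (4EHP), a cap-binding protein that represses translation, had the same high replicate, with 140, 136 and 129 CPM against 197, 128 and 129. Its log2 fold change of 0.17 (adjusted p = 0.339) turned to -0.07 without that library. siTRIM28 replicate 1 stood at 1.39 times the mean of the other siTRIM28 replicates for EIF4E and at 1.53 times for EIF4E2. EIF4E3, with 2.23 to 3.38 CPM in siNC, was too low to be read (-0.29 ± 0.30).

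None of the 3 eIF4G scaffolds was called, where 41.8% of all genes tested were. EIF4G1, the main scaffold of eIF4F, measured 909, 893 and 906 CPM in siNC and 910, 935 and 933 in siTRIM28 (0.04 ± 0.03, adjusted p = 0.404), so the groups were barely apart. EIF4G2 (DAP5), which works without eIF4E, and EIF4G3 had log2 fold changes of -0.03 and -0.05. Of the helicase group, EIF4B, the cofactor that stimulates eIF4A, measured 1906, 1898 and 1933 CPM against 1530, 1585 and 1571 (-0.29 ± 0.03, adjusted p = 2.25e-05), a clear separation in one of the most abundant members. EIF4A2 was lower as well (-0.21 ± 0.04, adjusted p = 0.00226). EIF4A1, the main helicase of eIF4F, measured 315, 314 and 324 CPM against 265, 293 and 301 (-0.15 ± 0.05, adjusted p = 0.0286). This call was lost under upper-quartile (adjusted p = 0.0871) and total-count scaling (0.0541), in DESeq2 (0.0703) and with the close pairs summed (0.0754). It was also lost without each siNC library in turn (up to 0.0938). EIF4A1 shares its exons with the readthrough gene SENP3-EIF4A1 (-0.15). It also overlaps the same-strand ENSG00000264772 (8466 counts on average, log2 fold change -0.06). EIF4A3, the helicase of the exon junction complex, and the cofactor EIF4H had no call (0.08 and -0.12).

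None of the 5 genes of the late steps was called, where 41.8% of all genes tested were. EIF5A, the hypusine-carrying factor that helps ribosomes through difficult peptide bonds, measured 329, 323 and 336 CPM in siNC and 327, 315 and 322 in siTRIM28 (-0.03 ± 0.04, adjusted p = 0.503). EIF6, which keeps the large ribosomal subunit from joining early, measured 27.0, 25.9 and 26.4 CPM against 28.0, 23.3 and 23.9 (-0.07 ± 0.08, adjusted p = 0.484). The groups overlapped for both. EIF5B, the GTPase of subunit joining, had no call at -0.10 (adjusted p = 0.0778), and EIF5A2, a second eIF5A gene, had none at 0.40 ± 0.16 (adjusted p = 0.066) from 3.02 to 3.91 CPM in siNC. EIF5AL1, an intronless copy of EIF5A, lay between 1.42 and 2.44 CPM.

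Paralogues, not all of which can replace each other in a complex, were compared as log2 ratios within each library, for 6 pairs. The difference between the groups was 0.35 for EIF1 to EIF1B and -0.44 for EIF5A to EIF5A2. It was 0.08 for EIF4G1 to EIF4G3 and 0.07 for EIF4G1 to EIF4G2. These 4 pairs did not overlap between groups, and of all genes tested, taken singly, 52% did not. All 4 pairs reached the smallest p that 3 against 3 libraries allow (exact two-sided permutation test, p = 0.1, adjusted 0.15). EIF5A2 had only 42 to 50 counts per library in siNC and 52 to 60 in siTRIM28. EIF4A1 to EIF4A2 (0.06) and EIF4E to EIF4E2 (0.13) had an exact permutation p of 0.2 (adjusted 0.2).

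Levels between genes were compared as RPKM, which divides CPM by the length given in the table. The median over the members was 17.97 RPKM in siNC and 18.7 in siTRIM28. That length joins all exons of a gene and reaches 37761 bases for EIF3E, so the longest protein-coding GENCODE v29 transcript was used as well, which gave medians of 39.9 and 38.6. By that length EIF4B (461 RPKM in siNC), EIF2S2 (324) and EIF3A (303) were the highest members, and EIF4E stood at 6.62 against 159 for EIF4G1 and 181 for EIF4A1. With the length of the table the same genes stood at 15.4, 103 and 61.2, so EIF4E was the lowest of these 3 by both lengths, by very different margins. In the eIF3 complex the siNC level by the GENCODE length ran from 11.4 for EIF3F to 303 for EIF3A. By the length of the table these genes stood at 5.67 and 284. The range rests in part on the length chosen, as EIF3E went from 8.25 with the length of the table to 202. The longest transcript need not be the one expressed.

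The 10 genes with a C and a run of C and T at an annotated start held no higher gene, 7 lower genes (EIF2S3, EIF2A, EIF2D, EIF3D, EIF3F, EIF4A2 and EIF4B) and 3 without a call, with a median log2 fold change of -0.20. The 30 other members tested that have a promoter sequence held 5 higher and 6 lower, with a median of -0.03. The 7 members without a promoter sequence, EIF2S2, EIF3A, EIF3CL, EIF3E, EIF3G, EIF3H and EIF3L, were left out of both groups. All of them but EIF3A were lower, where 20.5% of all genes were and 32% of genes with a mean of at least 50 CPM. These groups thus do not cover all falls among the members. EIF3CL can hardly be told apart from EIF3C, which is among the 30. Over all 796 genes tested that have such a start, 29.9% were lower and 17.5% higher, and over 10237 without it 24.5% and 22.6%. At a mean of at least 50 CPM, 40.5% of 274 genes with the run were lower and 18.2% higher. Of 2403 without it, 31.7% were lower and 29.3% higher. The 10 members with an E-box held 3 lower genes and no higher gene, with a median of 0.00, and the 30 without it 10 lower and 5 higher, with a median of -0.08. Over all 1357 genes tested with an E-box 29.4% were lower and 19.8% higher, so the members' 3 of 10 lower was near this share. No test was made of these groups.

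The other genes of translation were taken from 9 lists of 50 genes in all, of which 49 were tested, 10 were higher and 14 lower, where 21.3% and 20.5% of all genes tested were. Their median log2 fold change was -0.03. The 4E-BPs, which block eIF4E, had no call for EIF4EBP1 (79.4, 79.4 and 83.3 CPM against 70.0, 81.3 and 86.6, log2 fold change -0.03) and EIF4EBP2 (0.00), with overlapping groups. EIF4EBP3, near 1 CPM, had a log2 fold change of 0.75 ± 0.28 with an adjusted p of 0.0487. This call was lost in DESeq2 (0.177), in limma-voom (0.0635) and with the close pairs summed (0.0912). Of the mTORC1 route 13 genes were tested, 2 higher and 3 lower, near the shares of 21.3% and 20.5% of all genes. TSC2, the GTPase activator that holds RHEB back, was lower (-0.82 ± 0.08, adjusted p = 7.04e-06), as were AKT1S1 (PRAS40, -0.58, adjusted p = 8.02e-05) and the S6 kinase gene RPS6KB1 (-0.41). RHEB, the activator of mTORC1, was higher (0.37, adjusted p = 2.81e-04), as was PDCD4, an inhibitor of eIF4A (0.19, adjusted p = 0.0081). MTOR, RPTOR and LARP1 had no call, with log2 fold changes between -0.00 and 0.02.

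The lowest and the highest log2 fold changes of these lists were in the eIF2alpha arm. EIF2AK4 (GCN2), the kinase that senses uncharged tRNA, fell from 106, 107 and 105 CPM to 55.7, 52.4 and 55.2 (-0.96 ± 0.05, adjusted p = 6.21e-08). EIF2AK1 (HRI) was lower (-0.33, adjusted p = 7.31e-04) and EIF2AK3 (PERK) had no call (0.02). EIF2AK2 (PKR) was higher (0.17, adjusted p = 0.0309), a call lost in DESeq2 (0.141) and with the close pairs summed (0.152). In the list of the eIF2alpha phosphatase and stress response 5 of 8 genes were higher and 2 lower, where 21.3% and 20.5% of all genes were. PPP1R15A (GADD34), the stress-induced subunit that dephosphorylates eIF2alpha, rose from 131, 131 and 133 CPM to 253, 277 and 261 (1.00 ± 0.04, adjusted p = 2.26e-08). ATF4, the transcription factor translated when eIF2 is phosphorylated, rose from 188, 187 and 176 CPM to 302, 279 and 276 (0.64 ± 0.05, adjusted p = 1.11e-06). DDIT3 (CHOP), a stress transcription factor downstream of it, was higher (0.91 ± 0.09, adjusted p = 6.07e-06). The groups did not overlap for PPP1R15A, ATF4 and DDIT3. IMPACT, an inhibitor of GCN2, was lower (-0.85 ± 0.08, adjusted p = 7.85e-06), as was DNAJC3 (p58IPK), a chaperone that inhibits PERK and PKR (-0.67 ± 0.07, adjusted p = 1.38e-05).

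PABPC1, the poly(A)-binding protein that joins the tail of an mRNA to eIF4G, was lower, from 3825, 3903 and 3862 CPM to 3401, 3325 and 3280 (-0.21 ± 0.03, adjusted p = 1.86e-04). Its list had 2 of 5 genes lower, where 20.5% of all genes were. Of the elongation factors 4 of 8 genes were lower and 1 higher, where 20.5% and 21.3% of all genes were, and 32% and 27.6% of genes with a mean of at least 50 CPM. EEF2 (-0.10, adjusted p = 0.13) and its kinase EEF2K (-0.14, adjusted p = 0.181) had no call. The hypusine enzymes DHPS (-0.04) and DOHH (-0.28) had none, like the termination factors, none of 3. In the list of reinitiation and recycling 1 of 3 genes was lower, where 20.5% of all genes were.

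**Figure D4:**
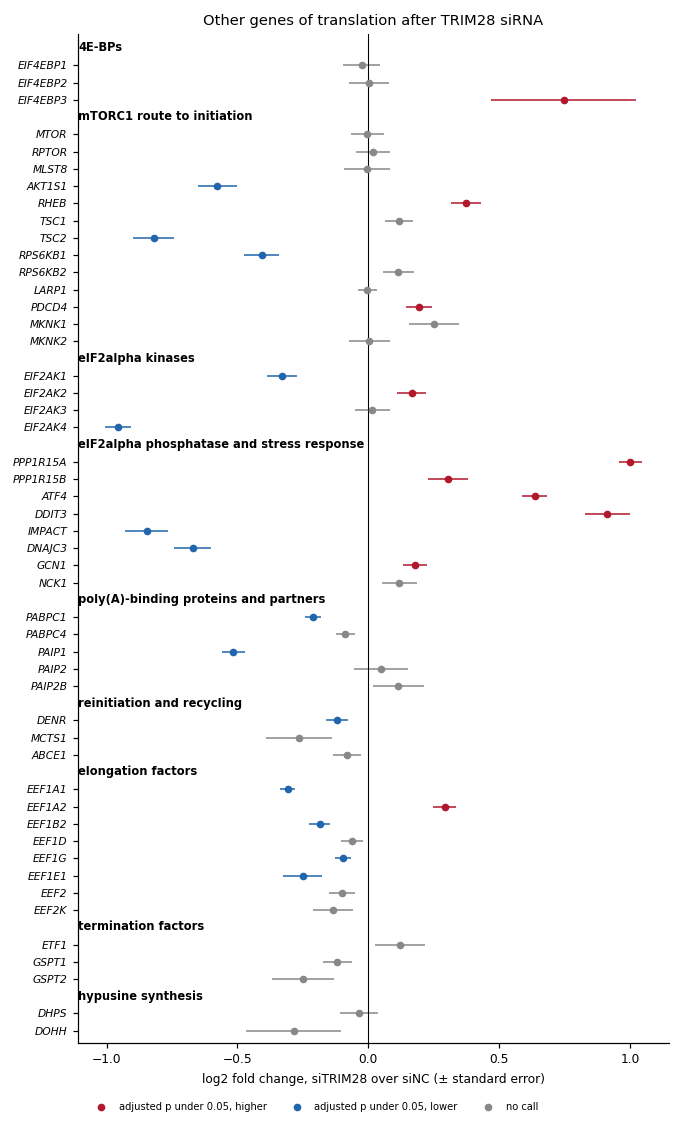
Log2 fold change (siTRIM28 over siNC, horizontal axis) of the 49 other genes of translation tested, with bars for the standard error, grouped by list. Red marks genes that were higher, blue genes that were lower and grey genes without a call, and the widest spread is between EIF2AK4 at -0.96 and PPP1R15A at 1.00.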

How the data were processed

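The deposited file holds the authors' raw counts, reads per gene without normalization, with gene symbol, GRCh38 coordinates and a length in bases, 1 column per library. The submitters' processing notes name fastp 0.23.1, STAR 2.7.6a, featureCounts and GRCh38. The annotation release, the strand setting and the handling of duplicate reads are not given in the sources used here. A second deposited table of the authors' own differential genes was not used.

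TMM factors and the quasi-likelihood test came from edgeR 4.0.16 (R 4.3.3), with the siRNA as the sole factor. It was run on the 18474 genes that had 10 counts or more in 3 or more of the 6 libraries, and p-values were adjusted by Benjamini-Hochberg over all of them (threshold 0.05). SE was taken as log2 fold change over the square root of F. Single values were tested by exact permutation (log2 CPM, prior count 2, smallest p 0.1). Members with an adjusted p under 0.05 and a log2 fold change of 0.25 or more in either direction are given in every library, as are EIF4E, EIF4G1, EIF4A1, EIF2S1, EIF5A and EIF6. Other genes of translation are named from a list of 13 or by a log2 fold change of at least 0.58. AKT1S1, RHEB, PDCD4, RPS6KB1, MTOR, RPTOR and LARP1 were named after their values were seen. The members and the gene lists were chosen with earlier results of these data known.

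In simulated data on 18474 genes for this comparison, 48 of 100 genes changed by 0.4 and 99 of 100 changed by 0.8 on the log2 scale were recovered, with 8 false calls. The changed genes were drawn only from better-counted genes, so that tested genes with low mean counts were left out. The simulation had 1 common dispersion and no close pairs of libraries. Far fewer genes were changed than the 7721 called here, so these shares do not give the power for the members. The alternatives were total-count, upper-quartile and RLE scaling, limma-voom 3.58.1, DESeq2 1.42.0, other filters and thresholds, the replicate number as a block, the close pairs of libraries summed, and each library left out in turn. Python 3.11.15 was used for sequences and plots, with pandas 2.3.3, numpy 2.4.6 and matplotlib 3.10.9. One marker gene of the cell type lists is not reported here.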

Additional observations from a re-analysis of the deposited data

How the results depend on the processing

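Under the threshold of 0.58 on the log2 scale 0 members were higher and 3 lower in edgeR, and 3143 of all genes and 4 higher and 4 lower other genes of translation passed. With upper-quartile scaling 8 members were higher, and calls over all genes were 56.64% higher against 51.04% by TMM, with a median log2 fold change of 0.05 over all genes. Other genes of translation that were higher numbered 6 in DESeq2 and 5 with the close pairs of libraries summed. With each library left out in turn, members higher numbered 4 to 5 and lower 18 to 22, all genes 6319 to 8130, and other genes of translation higher 8 to 11 and lower 11 to 16. The same range was 0.03 to 0.07 for the log2 ratio of EIF4A1 to EIF4A2, 0.06 to 0.09 for EIF4G1 to EIF4G3, 0.06 to 0.08 for EIF4G1 to EIF4G2, 0.10 to 0.18 for EIF4E to EIF4E2, -0.53 to -0.36 for EIF5A to EIF5A2 and 0.31 to 0.38 for EIF1 to EIF1B. With GENCODE lengths, chosen after the data were seen, median RPKM was 39.9 in siNC and 38.6 in siTRIM28.

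Same-numbered libraries of siNC and siTRIM28 shared only a number (correlations of their deviations 0.05, -0.01 and 0.04). With the replicate number as a block 5 members were higher and 20 lower. EIF2S1 lost its call (adjusted p = 0.0792), while EIF4E (0.0199) and EIF4H (0.049) gained one. In this fit 7913 of all genes were called, and other genes of translation were 10 higher and 13 lower.

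Log2 fold changes of genes without a call changed sign. With upper-quartile scaling they were 0.00688 for EIF1B, 0.00281 for EIF1AX, 0.00689 for EIF2B4, 0.00387 for EIF4G2 and 0.00853 for EIF4EBP1. EIF2B4 was at 0.0176 with close pairs summed, and EIF4EBP2 at -0.00363 with RLE factors and in DESeq2 and at -0.00714 without the filter. With libraries left out, the ranges were -0.0588 to 0.016 for EIF1B, -0.131 to 0.297 for EIF2S3B, -0.0144 to 0.0521 for EIF2B2, -0.124 to 0.0422 for EIF2B4, -0.0684 to 0.265 for EIF4E2, -0.695 to 0.00893 for EIF4E3, -0.356 to 0.0611 for EIF5AL1, -0.09996 to 0.0591 for EIF4EBP1, -0.0444 to 0.075 for EIF4EBP2, -0.0271 to 0.0552 for EIF2AK3 and -0.0811 to 0.0163 for DHPS. The cause was not tested. Counting depth limits EIF4E1B, EIF4E3, EIF2S3B, EIF5AL1, EIF5A2 and EIF4EBP3. A gene without a call may still differ. In simulated data 48 of 100 changes of 0.4 were recovered, but the simulation differed from these data and does not give the power for the members.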
